A study of Homo sapiens with 41 samples.

Results

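Unstressed LX-2 cells were compared with unstressed HMLE cells, both carrying the control hairpin shCtrl and both given the vehicle DMSO. The members are the count files whose titles name shCtrl, DMSO and 1 of these lines, 2 replicates per line, which makes 4 of the 41 samples of the series. The series studied the stress response transcription factor ATF4 in liver fibrosis and also holds cells with a hairpin against ATF4 (shATF4), with thapsigargin (Tg), with AA_Dep, which is taken to mean amino acid deprivation, with TGFbeta (LX-2) and with Twist overexpression (HMLE). The comparison asks which genes set the stellate line apart from the mammary epithelial line before any stress was applied. Genes on chromosomes X and Y were left out, as were genes without a chromosome in the reference.

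Hepatic stellate cells lie between hepatocytes and the sinusoids of the liver, where they store vitamin A when quiescent. On injury they turn into contractile, myofibroblast-like cells and become the main source of fibrillar collagen in the scar. LX-2 is a human stellate line immortalised with SV40 large T antigen. HMLE is a line of human mammary epithelial cells immortalised with the telomerase catalytic subunit (hTERT) and SV40 large T antigen. It is widely used to study the epithelial-mesenchymal transition (EMT), in which epithelial cells lose E-cadherin and their junctions and take on mesenchymal genes. The labels give no dose, duration, culture medium or batch for these 4 samples, and each line stands for 1 cell type from 1 source. Line, tissue, immortalisation, medium and any batch therefore cannot be told apart, and the labels do not say whether replicates came from separate cultures, so that p-values measure the spread between these samples.

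The LX-2 libraries held 18729266 and 18495277 counts and the HMLE libraries 22662452 and 20456433. Replicates correlated at r = 0.995 in LX-2 and 0.998 in HMLE on log2 CPM, and libraries of different lines at 0.779 to 0.780. CPM are counts per 1e+06 counts of a library, scaled by TMM. The replicates differed by more than counting error, with a chi-square per degree of freedom of 8.22 in LX-2 and 2.61 in HMLE. The fit used 1 spread per gene for both lines. Genes of the mitochondrial genome took 2.58% and 2.75% of counts in LX-2 and 0.518% and 0.571% in HMLE. This share is given beside the results on mitochondrial genes.

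Of 14701 genes tested, 5981 (40.7%) were higher in LX-2 and 5921 (40.3%) lower by edgeR's quasi-likelihood test at an adjusted p under 0.05, together 81.0%. Because so many genes passed, members of gene lists were counted by a stricter test against a 2-fold difference, the 2-fold test below. It called 3226 genes (21.9%) higher in LX-2 and 2574 (17.5%) lower, 39.5% in all, and these shares are the background for every count that follows. Both libraries of one line stood above both of the other for 90.2% of genes, so a lack of overlap says little about any single gene. The median log2 difference (LX-2 minus HMLE) over all genes was 0.0043 and the median absolute difference was 0.95. Differences are given as log2 ± standard error, and adjusted p-values are Benjamini-Hochberg values over all genes tested. In bulk RNA, fewer cells expressing a gene and less RNA per cell cannot be told apart.

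**Figure D1:**
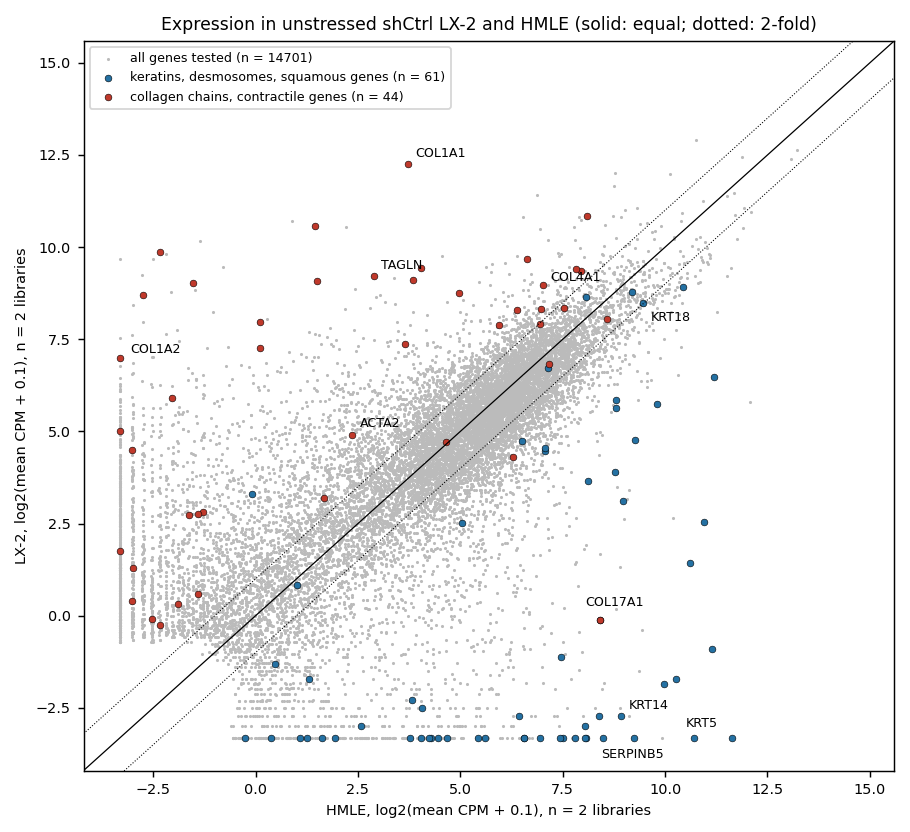
Mean CPM in HMLE (x axis) against mean CPM in LX-2 (y axis), both as log2 of CPM plus 0.1, 1 point per gene over 14701 genes, 2 libraries per line. Keratin, desmosome and squamous genes (blue) lie mostly below the line of equality and collagen and contractile genes (red) mostly above it, with COL17A1 as a collagen gene far below.

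A part of the difference was near all-or-none. Of 10598 genes at 5 CPM or more in LX-2, 273 had at most 3 counts over both HMLE libraries. Among these 273, 152 had no HMLE count. In the other direction 10203 genes were at 5 CPM or more in HMLE. Of those, 192 had at most 3 counts over the LX-2 libraries, and 113 of the 192 had none in LX-2. For such genes a fold is given as a lower bound, with 3 counts over the line without counts as the floor, and these bounds cover counting error only.

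The cell type markers followed the labels, with exceptions among the stellate genes. All 15 basal mammary epithelial markers were lower in LX-2 by the 2-fold test. They summed to 0.0286% and 0.027% of counts in LX-2 and 1.18% and 1.18% in HMLE. Sums over a gene list, here and below, are of counts scaled by TMM, as for CPM. Shares of the mitochondrial genome and of single genes are of unscaled counts. KRT5, a keratin of basal epithelium, had no count in either LX-2 library and 3178 and 3211 CPM in HMLE, at least 41494-fold more. Of 24 stellate markers 20 were tested, 14 were higher in LX-2 and 4 lower, with a median log2 difference of 6.63 (4.34 with genes lacking counts at their bound). PDGFRB, the receptor through which PDGF drives stellate cell growth, was at 74.7 and 79.4 CPM in LX-2 and 0.324 and 0.307 CPM in HMLE. GATA4, a transcription factor of liver mesenchyme, was at 66.8 and 70.1 CPM in LX-2 with no HMLE count. COL1A2, DCN, HAND2 and LHX2 were also without a HMLE count. PDGF receptor and liver mesenchyme genes thus set LX-2 apart from HMLE.

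The 4 stellate markers lower in LX-2 were LRAT, NGFR, CYGB and PPARG. LRAT, which esterifies retinol for storage, was at 0.0508 and 0 CPM in LX-2 and 15.5 and 15.3 CPM in HMLE. NGFR, the p75 neurotrophin receptor, was at 5.95 and 6.42 CPM in LX-2 and 119.9 and 119 CPM in HMLE. DES, HGF, TCF21 and COLEC11 were too low to be tested, with 2 and 0 counts of DES in LX-2. Several defining markers of stellate cells were thus at or near 0 in the line named for them, and some were higher in the epithelial line.

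Markers of hepatocytes, endothelial cells and leukocytes were low or absent. The 13 hepatocyte markers summed to 0.000407% and 0.00056% of counts in LX-2 and 0.00324% and 0.0031% in HMLE, most of the latter from SERPINA1. Of these markers 12 were too low to be tested, and ALB and APOB had no count in any of the 4 libraries. Endothelial markers summed to 0.00162% and 0.00152% of counts in LX-2 and 0.000204% and 0.000231% in HMLE. Leukocyte markers summed to 0.00143% and 0.00187% of counts in LX-2 and 0.00115% and 0.00143% in HMLE. Luminal mammary markers summed to 0.0809% and 0.0913% of counts in LX-2 and 0.251% and 0.240% in HMLE. Of 12 tested, 7 were lower in LX-2 and 3 higher, and 1 was higher with a filter of at least 1 CPM in both libraries of a line. The cholangiocyte list summed to 0.00315% and 0.00316% of counts in LX-2 and 0.233% and 0.222% in HMLE. Its members KRT7, KRT19, SOX9 and EPCAM are also epithelial genes of the breast, and 3 of 4 tested members were lower in LX-2. The call of KRT19 was lost without HMLE replicate 1 (log2 -2.06), HMLE replicate 2 (-2.08) or LX-2 replicate 2 (-1.69) and with DESeq2 (-2.08).

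**Figure D2:**
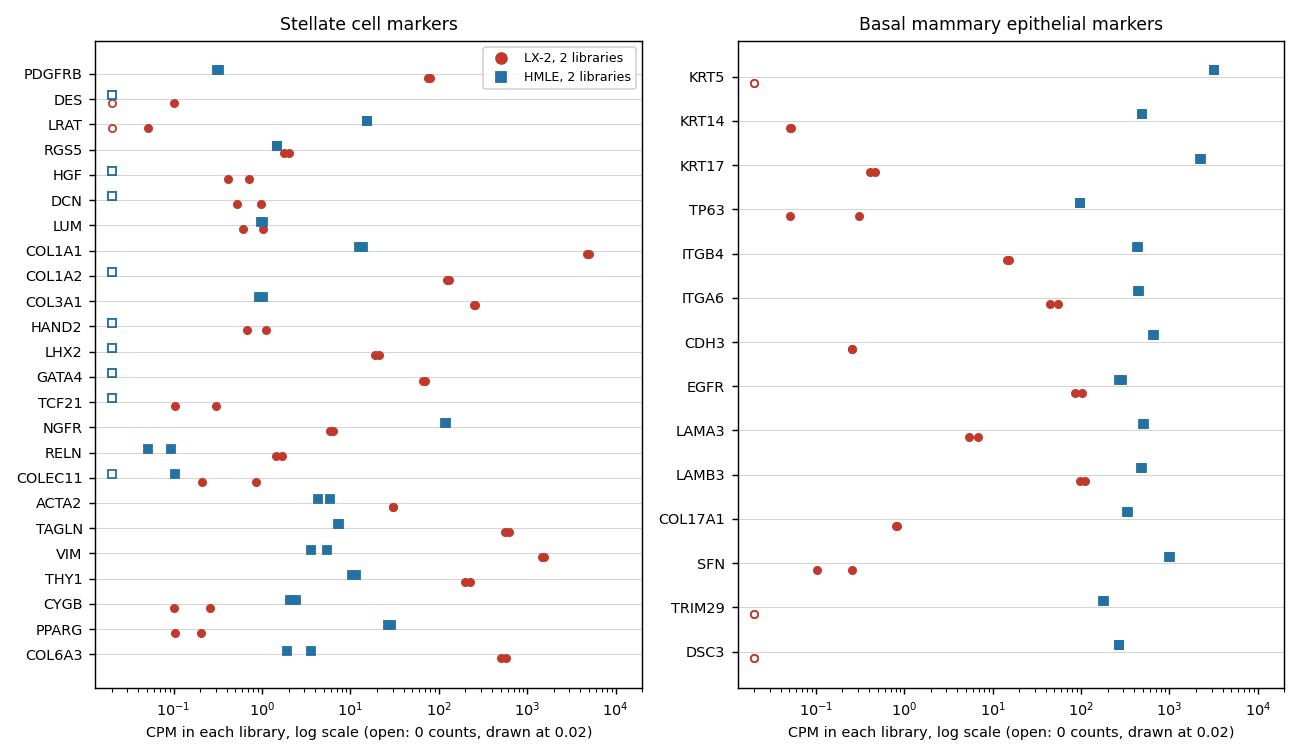
CPM in each of the 4 libraries on a log axis for the stellate cell markers (left) and basal mammary epithelial markers (right), with circles for LX-2, squares for HMLE and open symbols for libraries without a count. Every basal marker drawn is higher in HMLE, while LRAT, NGFR, CYGB and PPARG among the stellate markers are also higher in HMLE.

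Transcription factors of epithelial identity also differed between the lines. Of 18 tested, 17 were lower in LX-2 and none was higher, with a median log2 difference of -7.10. GRHL2, a grainyhead factor that maintains epithelial junction genes, was at 114 and 111 CPM in HMLE and 0.102 and 0 CPM in LX-2. ZNF750, a factor of keratinocyte differentiation, was at 22.0 and 24.5 CPM in HMLE with no LX-2 count, at least 301-fold more. OVOL1, EHF and TFAP2C showed the same pattern, with at most 3 counts over the LX-2 libraries in each. TFAP2A, also an epithelial and neural crest factor, was the exception at 89.5 and 77.5 CPM in LX-2 and 96.0 and 103 CPM in HMLE and did not pass the 2-fold test (log2 -0.25 ± 0.09).

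EMT transcription factors, which repress epithelial genes, went largely the other way: 7 of 11 tested were higher in LX-2 and 2 lower. ZEB1 was at 29.6 and 23.2 CPM in LX-2 and 0.278 and 0.0512 CPM in HMLE and ZEB2, its paralogue, at 94.2 and 74.4 CPM in LX-2 and 0.278 and 0.256 CPM in HMLE. Their log2 differences were 7.23 ± 0.32 and 8.27 ± 0.23 (adjusted p = 2.10e-08 and 4.46e-10 by the 2-fold test). SNAI1 was at 3.66 and 4.66 CPM in LX-2 with no HMLE count. Both libraries of LX-2 lay above both of HMLE for ZEB1, ZEB2 and SNAI1, but 90.2% of all genes tested had no overlap between the lines.

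Not every factor of this class was higher in the mesenchymal line. TWIST1, a factor that drives EMT, was at 16.4 and 17.1 CPM in LX-2 and 17.7 and 17.1 CPM in HMLE, and the groups overlapped (log2 -0.05 ± 0.11, adjusted p = 0.663 against no difference), with the sign turning under upper quartile scaling. TWIST2, its paralogue, was at 44.2 and 51.6 CPM in LX-2 and 3.43 and 3.89 CPM in HMLE, a log2 difference of 3.71 ± 0.14. FOXC1 was lower in LX-2, at 54.0 and 50.4 CPM in HMLE and 11.6 and 12.6 CPM in LX-2. SNAI2, known as Slug, was also lower, at 25.0 and 21.2 CPM in LX-2 and 52.3 and 57.6 CPM in HMLE, a log2 difference of -1.25 ± 0.11. That call was lost without HMLE replicate 2 (-1.21), with DESeq2 (-1.25), under upper quartile scaling (-1.12) and in a fit of 31 libraries, all conditions of both lines (-1.31). The last of these losses did not occur in the fit of 30 libraries, without LX-2 Tg replicate 2 of shCtrl (-1.30). The family was thus split, with TWIST2, SNAI1 and both ZEB genes on the stellate side and FOXC1 on the epithelial side.

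ZEB1 and ZEB2 are known targets of the microRNAs of the miR-200 family and of miR-205, which hold epithelial cells in their state. These libraries do not measure mature microRNAs, but they count the longer transcripts from which some are cut. MIR205HG, the host transcript of miR-205, had no count in LX-2 and 49.5 and 51.9 CPM in HMLE, at least 658-fold more. MIR200CHG, the host of miR-200c and miR-141, had no count in LX-2 and 34 and 33 counts in HMLE. Both host genes were chosen after their values were seen. MIR205 itself had 4 and 9 counts in HMLE and MIR429, of the other miR-200 cluster, 2 and 9, with none in LX-2, and both were below the filter. The mature sequences that lie in these transcripts or at MIR429 are shown from RefSeq (GRCh38.p14), 5′ to 3′, with the seed (bases 2 to 8) in capitals.
hsa-miR-205-5p: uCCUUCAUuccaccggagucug
hsa-miR-200c-3p: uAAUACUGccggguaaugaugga
hsa-miR-429: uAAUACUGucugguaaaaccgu
hsa-miR-141-3p: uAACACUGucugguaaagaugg
The seed of miR-200c-3p is the same as that of miR-429, and the seed of miR-141-3p differs from it. miR-205-5p lies at chr1:209432166-209432187, miR-200c-3p at chr12:6963742-6963764, miR-141-3p at chr12:6964155-6964176 and miR-429 at chr1:1169055-1169076, all on the plus strand.

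Splicing regulators that set epithelial or mesenchymal exons divided between the lines, with 6 of 14 tested higher in LX-2 and 4 lower. ESRP1 and ESRP2 promote epithelial exons of FGFR2, CD44 and other genes. ESRP1 was at 161 and 170.0 CPM in HMLE and 0 and 0.104 CPM in LX-2, and ESRP2 at 183 and 192 CPM in HMLE and 0.61 and 0.155 CPM in LX-2. RBM47 was also lower in LX-2, at 39.7 and 41.7 CPM in HMLE and 1.83 and 1.87 CPM in LX-2. Of those that were higher, CELF2 was at 34.6 and 27.6 CPM in LX-2 and 0 and 0.0512 CPM in HMLE and NOVA2, known from neurons, at 14.4 and 13.9 CPM in LX-2 and 0 and 0.0512 CPM in HMLE. RBFOX2, MBNL1 and CELF1, regulators present in both lines, did not pass the 2-fold test.

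Keratins, the intermediate filament proteins of epithelia, were among the lists with the lowest medians. They summed to 0.0936% and 0.106% of counts in LX-2 and 1.48% and 1.48% in HMLE, and 18 of 20 tested were lower in LX-2 with a median log2 difference of -8.66 (-7.64 at the bounds). KRT14, the partner of KRT5 in basal cells, was at 484 and 488 CPM in HMLE and 0.0508 and 0.0518 CPM in LX-2. KRT17 was at 2228 and 2299.7 CPM in HMLE and 0.407 and 0.466 CPM in LX-2. KRT6A was at 1679.6 and 1649.7 CPM in HMLE with no LX-2 count, but its reads may be split with its near-identical copies KRT6B and KRT6C, so its level is uncertain. Simple epithelial keratins were not absent from LX-2: KRT18 was at 328 and 383 CPM in LX-2 and 719.8 and 692 CPM in HMLE, which did not pass the 2-fold test, though it did without LX-2 replicate 2 (log2 -1.14). KRT34 was the 1 keratin higher in LX-2.

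The mesenchymal filament vimentin gave the mirror image. VIM was at 1461 and 1532 CPM in LX-2 and 3.61 and 5.38 CPM in HMLE, a log2 difference of 8.39 ± 0.13 (adjusted p = 1.34e-11). SYNM, which encodes synemin, a linker of vimentin and desmin filaments, was at 17.7 and 15.5 CPM in LX-2 and 1.62 and 1.79 CPM in HMLE. Of 6 tested genes of this list 4 were higher in LX-2 and 1, NEFM, was lower, a call that DESeq2 did not make. This list summed to 1486 and 1553 CPM in LX-2 and 8.62 and 9.79 CPM in HMLE. Keratins summed to 936 and 1060 CPM in LX-2 and 14846 and 14837 CPM in HMLE. LX-2 thus expressed filament genes of both classes, and HMLE mainly keratins.

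Cell adhesion differed by a switch of cadherins. CDH1, E-cadherin, was at 566 and 555 CPM in HMLE and 0.102 and 0 CPM in LX-2, and CDH3, P-cadherin of basal epithelium, at 663 and 655 CPM in HMLE and 0.254 and 0.259 CPM in LX-2. CDH2, N-cadherin, was at 339 and 296 CPM in LX-2 and 4.40 and 4.56 CPM in HMLE. CDH11, a cadherin of mesenchyme, was at 56.8 and 54.9 CPM in LX-2 with no HMLE count, at least 765-fold more. All 7 tested classical cadherins passed the 2-fold test, 5 higher in LX-2 and 2 lower.

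Desmosomes anchor keratins at the cell border and hemidesmosomes anchor them to the basement membrane. Of 16 tested genes 13 were lower in LX-2 and none passed the 2-fold test in the other direction (median log2 -4.49). DSG3 and DSC3, desmosomal cadherins, had no LX-2 count and were at 172 and 173 and 270.4 and 267 CPM in HMLE. COL17A1, a transmembrane collagen of hemidesmosomes, was at 335 and 340.4 CPM in HMLE and 0.813 and 0.829 CPM in LX-2. DSP, desmoplakin, was at 555 and 446 CPM in HMLE and 9.71 and 7.36 CPM in LX-2. The cytolinkers DST and PLEC and the tetraspanin CD151 did not pass the 2-fold test.

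Tight junction and polarity genes were lower in LX-2 for 13 of 19 tested. CLDN7 was at 157 and 156 CPM in HMLE and 0.102 and 0 CPM in LX-2 and CLDN1 at 97.4 and 98.3 CPM in HMLE and 1.02 and 1.09 CPM in LX-2. CLDN11, a claudin known from oligodendrocytes and Sertoli cells, was 1 of 2 members higher in LX-2, at 339.9 and 345 CPM against 0 and 1 counts in the HMLE libraries, a ratio of 14071 (95% counting interval 2525 to 555810.0). CGNL1 was the other. TJP1, the scaffold ZO-1, was at 167 and 136 CPM in LX-2 and 233 and 217 CPM in HMLE and did not pass the 2-fold test (log2 -0.57 ± 0.10).

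Surface and trafficking genes of epithelia were lower in LX-2 for 17 of 18 tested (median log2 -7.00). EPCAM, an adhesion molecule of epithelia, was at 262 and 244 CPM in HMLE and 0.102 and 0 CPM in LX-2. RAB25, a small GTPase of apical recycling, had no LX-2 count and 108 and 109 CPM in HMLE, at least 1407-fold more. Genes of squamous and basal epithelium gave the lowest median of the lists other than markers, -11.78 (-8.37 at the bounds), with 24 of 25 lower in LX-2 and 18 without any LX-2 count. SERPINB5, the serpin maspin, had no LX-2 count and 598 and 612 CPM in HMLE. SFN, the epithelial 14-3-3 protein sigma, was at 1016 and 983 CPM in HMLE and 0.254 and 0.104 CPM in LX-2. Kallikreins KLK5, KLK7 and KLK10, secreted proteases of squamous epithelium, had no LX-2 count, with KLK5 at 364 and 349.9 CPM in HMLE.

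Because these genes moved together, the 250 bases before their start sites were searched on both strands for motifs of factors of the 2 cell states: the E-box bound by ZEB and SNAI proteins (CACCTG or its reverse CAGGTG), the AP-1 site (TGANTCA) and the CArG box of serum response factor. Among 8059 tested genes with exactly 1 promoter in the RefSeq table, 15.9% held the E-box, 4.12% the AP-1 letters and 0.906% a CArG box. The E-box was found in 6 of the 9 promoters of the epithelial surface list that were in the table and in 9 of 14 of the squamous list. Among collagen chains it was found in 4 of 17 promoters, and among contractile genes in 1 of 8. The AP-1 letters were found in 7 of 14 squamous promoters and in 0 of 9 of the surface list. They were in 0 of 17 collagen promoters and 0 of 8 contractile promoters. A match is a description of letters and not a binding site. The promoters of RAB25 (chr1:156060910-156061159) and SERPINB5 (chr18:63476708-63476957), genes without a LX-2 count, are shown from RefSeq (GRCh38.p14, plus strand, bases before the start site), with the E-box of RAB25 and the AP-1 letters of SERPINB5 in capitals.
RAB25: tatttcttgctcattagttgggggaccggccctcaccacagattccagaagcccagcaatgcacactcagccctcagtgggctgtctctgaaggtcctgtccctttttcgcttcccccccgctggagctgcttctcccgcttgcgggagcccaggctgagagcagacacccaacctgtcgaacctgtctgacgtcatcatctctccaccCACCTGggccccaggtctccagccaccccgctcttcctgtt
SERPINB5: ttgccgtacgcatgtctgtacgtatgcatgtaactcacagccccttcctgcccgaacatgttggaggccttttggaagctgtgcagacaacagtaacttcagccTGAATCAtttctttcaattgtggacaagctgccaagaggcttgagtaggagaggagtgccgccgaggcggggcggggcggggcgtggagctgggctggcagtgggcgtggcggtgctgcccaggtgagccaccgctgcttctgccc
Each held 1 match of the motif shown in capitals, 41 bases before the start site in RAB25 and 146 in SERPINB5, counted from the first base of the match. The SERPINB5 window also held an E-box, left in lower case. No match of these motifs overlapped that of another in the windows shown.

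Collagens had the highest median of the lists other than markers. Of 26 collagen chains tested, 22 were higher in LX-2 and 2 lower, with a median log2 difference of 4.63. The 36 chains listed together took 1.16% and 1.17% of counts in LX-2 and 0.113% and 0.115% in HMLE. COL1A1, the alpha-1 chain of type I collagen that dominates scar, was at 4794 and 4986 CPM in LX-2 and 12.4 and 13.8 CPM in HMLE, a log2 difference of 8.55 ± 0.09 (adjusted p = 2.52e-12). COL1A2, its partner chain, was at 123 and 129.7 CPM in LX-2 with no HMLE count, at least 1733-fold more. COL5A1, which nucleates collagen fibrils, was at 941 and 923 CPM in LX-2 and 0.0927 and 0.102 CPM in HMLE. COL6A1 and COL6A2, chains of the pericellular type VI collagen, were at 497 and 539 and at 384 and 443 CPM in LX-2, and below 1 CPM in HMLE.

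The collagens lower in LX-2 were COL17A1, described with the hemidesmosomes, and COL16A1. COL7A1, the anchoring fibril collagen, did not pass the 2-fold test, at 114 and 115 CPM in LX-2 and 135 and 153 CPM in HMLE. The tested chains of types I to VI were without exception higher in LX-2. COL17A1 and COL7A1, which both serve to anchor epithelium, were lower or not called.

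Matrix glycoproteins were higher in LX-2 for 23 of 36 tested and lower for 3 (median log2 2.29). FN1, fibronectin, was at 4557 and 3756 CPM in LX-2 and 462 and 409.8 CPM in HMLE. THBS2, a matricellular protein, was at 1191 and 1102 CPM in LX-2 and 0.278 and 0.307 CPM in HMLE, a log2 difference of 11.91 ± 0.14. FBN1, the microfibril protein fibrillin-1, was at 283 and 217 CPM in LX-2 and 1.11 and 0.769 CPM in HMLE. THBS1, the paralogue of THBS2, was among the 3 that were lower, at 372 and 339.8 CPM in LX-2 and 1377 and 1372 CPM in HMLE. THBS1 and THBS2 thus differed in opposite directions between the lines.

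Enzymes that modify and crosslink collagen were less one-sided: 12 of 24 were higher in LX-2, 1 was lower and 11 were not called. LOX, lysyl oxidase, was at 172 and 157 CPM in LX-2 and 3.29 and 3.64 CPM in HMLE, and LOXL2 at 1394 and 1499.6 CPM in LX-2 and 123 and 124 CPM in HMLE. ADAMTS2, which removes the aminopropeptide of procollagen, was at 36.3 and 35.5 CPM in LX-2 with no HMLE count. CRTAP and FKBP10, partners in collagen folding, did not pass the 2-fold test: CRTAP was at 309 and 332 CPM in LX-2 and 189 and 187 CPM in HMLE.

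Laminins, the main glycoproteins of basement membranes, divided by chain. LAMA3 and LAMB3, chains of the laminin of epithelial basement membrane, were lower in LX-2, with LAMA3 at 515 and 508 CPM in HMLE and 6.76 and 5.44 CPM in LX-2. LAMA4 and LAMB2 were higher, LAMB2 at 504 and 552 CPM in LX-2 and 43.6 and 44.8 CPM in HMLE. Of 10 laminin chains tested 2 were higher, 3 lower and 5 not called, beside 21.9% higher and 17.5% lower over all genes. Of 18 integrins tested, which include receptors for these ligands, 8 were lower in LX-2 and 4 higher. In both families the share higher was near that of all genes. ITGB4, the hemidesmosome subunit that binds epithelial laminin, was at 443 and 435 CPM in HMLE and 14.6 and 15.2 CPM in LX-2. ITGA11, a receptor for fibrillar collagen, was at 22.6 and 23.3 CPM in LX-2 and 0.0463 and 0.102 CPM in HMLE. ITGB3 had no HMLE count, and was at 8.69 and 7.93 CPM in LX-2.

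Matrix proteases and their inhibitors were higher in LX-2 for 13 of 26 and lower for 6. SERPINE2, a serpin that inhibits thrombin and plasminogen activators, was at 161 and 160.2 CPM in LX-2 and 22.4 and 20.4 CPM in HMLE. TIMP2, an inhibitor of metalloproteinases, was at 874 and 868 CPM in LX-2 and 24.9 and 21.8 CPM in HMLE. MMP7 and MMP28, proteases of epithelia, were lower in LX-2, MMP28 at 31.6 and 29.7 CPM in HMLE and 0 and 0.104 CPM in LX-2. FAP, fibroblast activation protein, was also lower in LX-2, at 9.64 and 10.5 CPM in HMLE and 1.07 and 1.61 CPM in LX-2, although it is known as a marker of activated fibroblasts; it was chosen after its values were seen.

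Contractile genes were higher in LX-2 for 15 of 18 tested and lower for none by the 2-fold test (median log2 2.82). MYL9, a myosin light chain, was at 1448 and 1623 CPM in LX-2 and 2.50 and 2.77 CPM in HMLE. TAGLN, the actin-binding protein SM22, was at 563 and 625 CPM in LX-2 and 7.37 and 7.23 CPM in HMLE. CNN1, calponin, was at 29.7 and 34.3 CPM in LX-2 with no HMLE count, and MYOCD, the smooth muscle coactivator myocardin, at 25.8 and 19.1 CPM in LX-2 and 0.0463 and 0 CPM in HMLE. ACTA2, alpha smooth muscle actin and the usual marker of activated stellate cells, was at 30.1 and 30.1 CPM in LX-2 and 4.26 and 5.84 CPM in HMLE, a log2 difference of 2.58 ± 0.14 (adjusted p = 8.67e-07), and was named after its values were seen.

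The CArG box was found in 3 of 8 promoters of contractile genes in the RefSeq table (ACTG2, CNN2 and MYLK), of which CNN2 was not called higher. ACTG2, gamma smooth muscle actin, was at 59.1 and 60.8 CPM in LX-2 and 0.185 and 0.102 CPM in HMLE, and the 250 bases before its start site (chr2:73892758-73893007, plus strand) are shown with 2 CArG boxes in capitals.
ACTG2: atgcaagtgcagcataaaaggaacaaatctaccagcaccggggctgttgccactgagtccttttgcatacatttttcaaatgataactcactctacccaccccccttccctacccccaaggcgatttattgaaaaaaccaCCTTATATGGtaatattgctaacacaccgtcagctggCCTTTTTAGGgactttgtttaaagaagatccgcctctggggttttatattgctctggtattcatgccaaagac
The boxes begin 110 and 73 bases before the start site.

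Position along the body axis and organ of origin are recorded in HOX and other patterning genes. Of 28 HOX genes tested, 16 were higher in LX-2 and 5 lower (median log2 1.63). HOXD8 to HOXD11 had no HMLE count, with HOXD10 at 6.25 and 6.17 CPM in LX-2, at least 85.1-fold more. HOXB13 was at 16.7 and 19.2 CPM in LX-2 with no HMLE count, and HOXB4 was at 30.4 and 33.7 CPM in LX-2 and 0.0927 and 0.102 CPM in HMLE. In the HOXA cluster no gene was called higher in LX-2 and genes called lower included HOXA5, HOXA6 and HOXA7, with HOXA5 at 2.13 and 1.76 CPM in LX-2 and 9.64 and 7.53 CPM in HMLE. The clusters thus differed in direction: B and D were on the stellate side and the called genes of A on the epithelial side. Of the HOXC genes tested, HOXC6 and HOXC10 to HOXC12 were higher in LX-2. HOXC13 was lower, a call lost with DESeq2 (-1.37) and in the fit of 31 libraries (-1.42) but kept in that of 30 libraries without LX-2 Tg replicate 2 of shCtrl (-1.42).

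**Figure D3:**
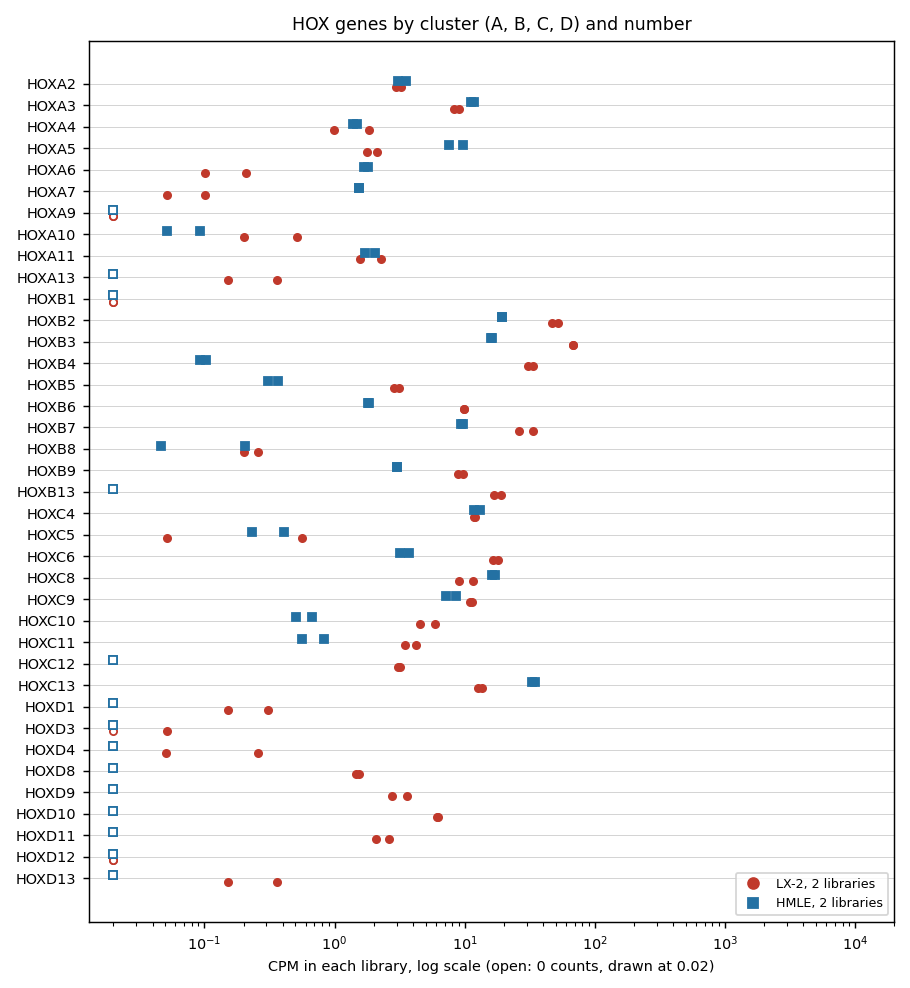
CPM of the HOX genes drawn in the 4 libraries on a log axis, ordered by cluster and number, circles for LX-2, squares for HMLE, open symbols for libraries without a count. HMLE shows open squares throughout the D cluster, and HOXA5, HOXA6 and HOXA7 lie higher in HMLE.

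Other patterning factors were higher in LX-2 for 17 of 26 tested and lower for 5 (median log2 3.20). FOXF1, a factor of visceral mesenchyme, was at 35.3 and 32.6 CPM in LX-2 with no HMLE count, at least 465-fold more. LHX2, a factor of stellate cells, was at 19.1 and 20.8 CPM and WT1, known from the mesothelium, at 9.10 and 10.1 CPM, neither with a HMLE count. TBX18 was at 44.8 and 38.0 CPM in LX-2 and 0 and 0.0512 CPM in HMLE. IRX5 was the reverse, with no LX-2 count and 12.5 and 14.4 CPM in HMLE.

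Genes of the quiescent, retinoid-storing stellate cell did not sit on 1 side: 9 of 18 tested were higher in LX-2 and 8 lower. CRABP2, which carries retinoic acid to its receptors, was at 99.5 and 92.1 CPM in HMLE and 1.22 and 1.92 CPM in LX-2, and PPARG, a lipid-related nuclear receptor of quiescent stellate cells, at 28.6 and 26.4 CPM in HMLE and 0.203 and 0.104 CPM in LX-2. PLIN2, a coat protein of lipid droplets, was at 35.3 and 37.4 CPM in LX-2 and 0.0463 and 0.154 CPM in HMLE. NTRK3, a neurotrophin receptor, was at 49.5 and 46.3 CPM in LX-2 with no HMLE count. The retinoid handling genes LRAT, CRABP2, STRA6, DHRS3 and RDH10 were lower in LX-2 and RARB and ALDH1A2 higher.

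Axon guidance genes, of which stellate cells are known to share several, were lower in LX-2 for 11 of 20 tested. SEMA3F was at 137 and 146 CPM in HMLE and 10.5 and 10.1 CPM in LX-2 and PLXNA2, a semaphorin receptor, at 185 and 181 CPM in HMLE and 10.8 and 11.4 CPM in LX-2. SLIT2, a ligand of ROBO receptors, was higher, at 89.9 and 70.4 CPM in LX-2 and 5.05 and 5.12 CPM in HMLE.

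Receptor tyrosine kinases divided between the lines, 12 of 25 higher in LX-2 and 7 lower. ROR2, a receptor for WNT5A, was at 68.5 and 74.3 CPM in LX-2 with no HMLE count. FGFR2, the FGF receptor of epithelia, was at 46.4 and 49.0 CPM in HMLE and 0 and 0.0518 CPM in LX-2. INSR, the insulin receptor, was at 16.9 and 15.8 CPM in LX-2 with 1 and 0 counts in the HMLE libraries, a ratio of 671 (95% counting interval 119.9 to 26530.0). IGF1R, its relative, did not pass the 2-fold test, at 87.2 and 76.1 CPM in LX-2 and 52.5 and 47.8 CPM in HMLE. ERBB2 was also not called.

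Growth factor ligands were higher in LX-2 for 8 of 21 and lower for 8. AREG, a ligand of the EGF receptor, was at 242 and 258 CPM in HMLE and 0.559 and 0.259 CPM in LX-2. EREG and TGFA, also ligands of that receptor, were lower too, TGFA at 148 and 154 CPM in HMLE and 1.42 and 0.933 CPM in LX-2. HBEGF and NRG1, further ligands of ERBB receptors, did not pass the 2-fold test. FGF1 was higher, at 24.6 and 23.6 CPM in LX-2 and 1.30 and 1.02 CPM in HMLE. AREG, EREG and TGFA were thus on the epithelial side, FGF1 on the stellate side.

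Insulin-like growth factor binding proteins differed in direction by member. IGFBP5 was at 899 and 916 CPM in LX-2 and 0.185 and 0.0512 CPM in HMLE, and IGFBP2 at 3.86 and 5.03 CPM in LX-2 and 190.4 and 192 CPM in HMLE. IGFBP3, IGFBP4 and IGFBP7 were higher in LX-2, IGFBP3 at 81.3 and 80.9 CPM in LX-2 and 20.8 and 19.3 CPM in HMLE. IGFBP6 was not called.

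TGF-beta is the main fibrogenic cytokine, and BMPs are its relatives. Of 35 genes tested 15 were higher in LX-2 and 7 lower. GREM1, a secreted BMP antagonist, was at 852 and 784 CPM in LX-2 with 0 and 3 counts in the HMLE libraries, a ratio of 11210.0 (95% counting interval 3835 to 54359). BMP2 was at 9.27 and 8.25 CPM in HMLE and 0 and 0.0518 CPM in LX-2 and BMP6 had no LX-2 count, with 2.13 and 1.95 CPM in HMLE. TGFB1 was higher in LX-2, at 227 and 241 CPM in LX-2 and 102 and 94.6 CPM in HMLE, a call lost without HMLE replicate 2 (log2 1.16) and in the fit of 31 libraries (1.19) but kept without LX-2 Tg replicate 2 of shCtrl (1.19, 30 libraries). TGFB2 was higher too, at 87.0 and 71.2 CPM in LX-2 and 17.8 and 18.3 CPM in HMLE. TGFBR2, the type II receptor, was lower, at 83.0 and 73.2 CPM in LX-2 and 207 and 199 CPM in HMLE, a call lost in the fit of 31 libraries (-1.43) and kept in that of 30 (-1.43). ID3, a BMP target, and SMAD2 were not called.

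In the WNT, Notch and Hedgehog list, 15 of 37 were higher in LX-2 and 9 lower. WNT5A, a ligand that acts through ROR2, was at 44.3 and 39.5 CPM in LX-2 and 0.0927 and 0.0512 CPM in HMLE. WNT7B, a ligand of epithelia, was at 43.7 and 44.4 CPM in HMLE and 0.152 and 0.104 CPM in LX-2. GLI2, the main activator of Hedgehog target genes, was at 60.3 and 58.5 CPM in LX-2 and 0.371 and 0.256 CPM in HMLE. DKK3 and NOTCH2 did not pass the 2-fold test. WNT ligands thus differed by member, WNT5A on the stellate side and WNT7B on the epithelial side.

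Cytokines and chemokines were higher in LX-2 for 16 of 26 tested and lower for 6 (median log2 2.71). CXCL12, which attracts CXCR4-bearing cells, was at 817 and 815 CPM in LX-2 with no HMLE count, at least 11177-fold more. CCL2, the monocyte chemoattractant, was at 42.9 and 44.9 CPM in LX-2 and 0 and 0.307 CPM in HMLE. CXCL6 was at 37.4 and 36.5 CPM in LX-2 and 0.139 and 0.154 CPM in HMLE. IL18 and IL1RN were lower, IL18 at 162 and 158 CPM in HMLE and 0.305 and 0 CPM in LX-2, and IL1RN, the interleukin-1 receptor antagonist, without a LX-2 count. IL1B was at 37.1 and 34.8 CPM in LX-2 and 25.8 and 27.3 CPM in HMLE and did not pass the 2-fold test.

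Interferon-stimulated genes were higher in LX-2 for 12 of 29 and lower for 3, or 1 with DESeq2. BST2, tetherin, was at 83.5 and 101 CPM in LX-2 and 0.788 and 0.922 CPM in HMLE, and MX2 was at 10.5 and 9.64 CPM in LX-2 with no HMLE count. IFITM3 and B2M were not called, with B2M at 750.0 and 792 CPM in LX-2 and 643 and 637 CPM in HMLE.

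ATF4, the transcription factor the series is about, drives amino acid transport and serine synthesis genes in the integrated stress response. It was at 215 and 235 CPM in LX-2 and 455 and 476 CPM in HMLE, a log2 difference of -1.05 ± 0.07 (adjusted p = 2.09e-07 against no difference), and did not pass the 2-fold test (adjusted p = 0.211), though it did without LX-2 replicate 2 (log2 -1.15). Of 27 genes of this response 14 were lower in LX-2 and 1 was higher, with a median log2 difference of -1.24. SLC7A5, the light chain of the LAT1 transporter of large neutral amino acids, was at 4333 and 4324 CPM in HMLE and 55.3 and 56.7 CPM in LX-2, a log2 difference of -6.27 ± 0.08. SLC7A11, the cystine transporter xCT, was at 157 and 154 CPM in HMLE and 21.0 and 13.6 CPM in LX-2, and ALDH1L2, of mitochondrial folate metabolism, at 80.9 and 72.0 CPM in HMLE and 8.44 and 8.24 CPM in LX-2. VLDLR, the 1 gene higher in LX-2, was at 13.8 and 15.03 CPM in LX-2 and 0.324 and 0.717 CPM in HMLE.

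SLC7A5 took 0.413% of counts in each HMLE library and was among the 10 autosomal genes with the largest share there, against 0.00580% and 0.00592% in LX-2. PHGDH, the first enzyme of serine synthesis, and STC2 did not pass the 2-fold test. Chaperones of the endoplasmic reticulum differed less: 20 of 24 were not called, 2 were higher in LX-2 and 2 lower. HSPA5, the chaperone BiP, was at 748 and 757 CPM in LX-2 and 1301 and 1303 CPM in HMLE (log2 -0.79 ± 0.06). CREB3L1, a membrane-bound factor of secretory cells, was higher in LX-2, at 206 and 222 CPM in LX-2 and 0.278 and 0.0512 CPM in HMLE, and P4HB, which also serves prolyl hydroxylation of collagen, was at 996 and 1099 CPM in LX-2 and 366 and 366 CPM in HMLE. The lower ones were MANF and DNAJB11, a cochaperone of BiP, which was at 36.5 and 38.4 CPM in LX-2 and 97.8 and 97.6 CPM in HMLE. Amino acid transport (SLC7A5, SLC3A2, SLC7A11) and serine synthesis genes (PSAT1, PSPH) were thus higher in unstressed HMLE.

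Cholesterol synthesis genes were lower in LX-2 for 6 of 21 and higher for none by the 2-fold test. SQLE, squalene epoxidase, was at 748 and 756 CPM in HMLE and 84.7 and 80.3 CPM in LX-2. Targets of NRF2, the oxidative stress factor, were lower for 9 of 18 and higher for 2. NQO1, a quinone reductase, was at 216 and 209.9 CPM in HMLE and 43.2 and 48.5 CPM in LX-2, and HMOX1, heme oxygenase 1, was higher in LX-2, at 29.5 and 31.04 CPM in LX-2 and 6.30 and 6.56 CPM in HMLE. SREBF2, which activates cholesterol synthesis genes, was not called, at 285 and 311 CPM in LX-2 and 239 and 248 CPM in HMLE.

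Few cell cycle genes were called: of 30, 2 were higher in LX-2, 2 lower and 26 not called, but 1 was lower without HMLE replicate 2, under upper quartile scaling, with DESeq2 and in the fit of 31 libraries, where 1 was higher. With LX-2 Tg replicate 2 of shCtrl left out of that fit, 2 were higher and 2 lower. Their median log2 difference was -0.07, within what scaling moves, since upper quartile scaling put the median of all genes at 0.13 and turned the sign of this list. TOP2A was at 939 and 807 CPM in LX-2 and 509 and 476 CPM in HMLE, and CCND1, cyclin D1, at 395 and 349.8 CPM in LX-2 and 500.0 and 517 CPM in HMLE. CCND2 was lower, at 5.13 and 4.56 CPM in LX-2 and 44.9 and 47.8 CPM in HMLE, and E2F1 higher, at 199.97 and 225 CPM in LX-2 and 51.2 and 52.9 CPM in HMLE. A separate list of tumour suppressors and CDK inhibitors, which holds TERT, was even. Of 23 tested 5 were higher in LX-2, 5 lower and 13 not called, with a median log2 difference of 0.15. TERT, the telomerase subunit used to immortalise HMLE, had no LX-2 count and 618 and 609 CPM in HMLE. The counts do not tell an introduced TERT sequence from the cell's own gene. MYC was at 452 and 454 CPM in HMLE and 98.3 and 103 CPM in LX-2, and CDKN1A, the inhibitor p21, at 195 and 193 CPM in HMLE and 28.1 and 30.4 CPM in LX-2; CDKN2A was not called.

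**Figure D4:**
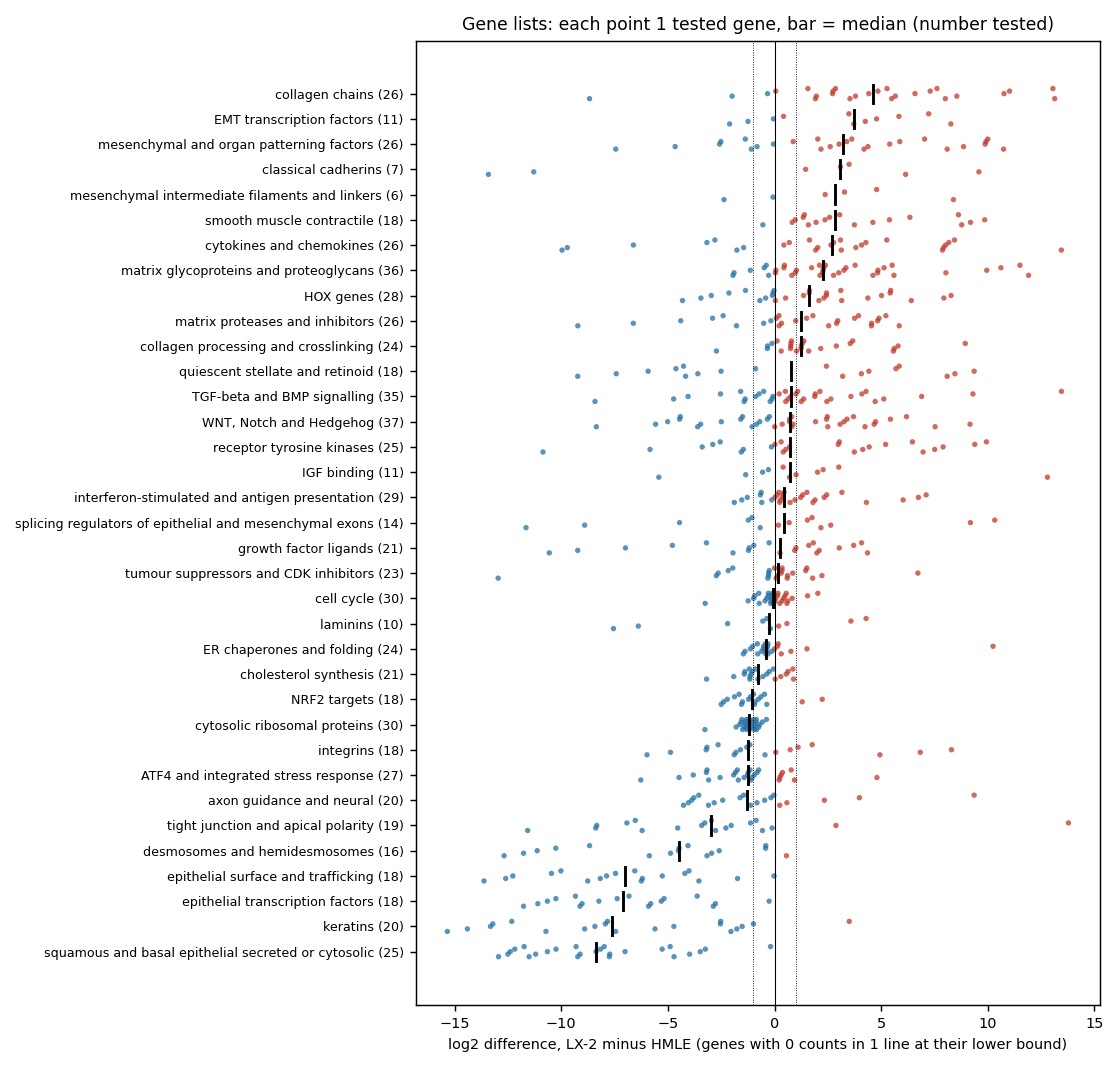
Log2 difference (LX-2 minus HMLE, x axis) of every tested gene in 35 lists, genes without counts in 1 line at their lower bound, with a black bar at each median and dotted lines at 2-fold. Collagens have the highest median and squamous genes the lowest, and cell cycle genes gather near 0.

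The genes with the largest differences repeated these groups and added others. Besides KRT5 and KRT6A, the 15 genes furthest on the HMLE side included TERT, SERPINB5, KLK5, DSC3, KLK7, FGFBP1, FAM83A, TRIM29, GJB2, DSG3 and KLK10, none with a LX-2 count. On the LX-2 side CXCL12, GFRA1, SSTR1, COL1A2, MYADM, FBXL7, PNMA2, TNFRSF1B, CLEC11A, ROR2, GATA4 and VAT1L had no HMLE count, and CLDN11, UCHL1 and GREM1 had 1 to 3. GFRA1, a receptor for the neurotrophic factor GDNF, was at 197 and 174 CPM and SSTR1, a somatostatin receptor, at 133 and 127 CPM. TNFRSF1B, the TNF receptor 2, was at 77.2 and 79.9 CPM. GJB2, the connexin 26 of epithelial gap junctions, was at 176 and 178 CPM in HMLE. UCA1, a long non-coding RNA chosen after its values were seen, was at 74.3 and 82.6 CPM in HMLE and 0.407 and 0.155 CPM in LX-2.

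The 30 cytosolic ribosomal protein genes listed were lower in LX-2 as a group. These 30 took 1.54% and 1.75% of counts in LX-2 and 3.64% and 3.69% in HMLE. Of 30 listed 18 were lower by the 2-fold test and none higher (median log2 -1.19), but 7 were lower in the fit of 31 libraries. With LX-2 Tg replicate 2 of shCtrl left out of that fit, 18 were lower, and the biological coefficient of variation was 7.43% against 22.1% with it. RPL30 was at 796 and 809.6 CPM in HMLE and 75.8 and 91.3 CPM in LX-2, RPL6 at 1652 and 1721 CPM in HMLE and 571 and 624 CPM in LX-2 and RPS14 at 1184 and 1180.1 CPM in HMLE and 371 and 428 CPM in LX-2. Many of these genes have near-identical processed pseudogenes, so their counts may be split by the authors' counting and single values are uncertain. Genes of the mitochondrial genome went the other way: 13 of 15 protein and rRNA genes tested were higher in LX-2, with a median log2 difference of 2.12. MT-CO1, a subunit of cytochrome oxidase, had 145392 and 153857 counts in LX-2 and 35534 and 34761 in HMLE. The mitochondrial share was 0.366% to 0.969% in the HMLE libraries other than those of AA_Dep, where it was 2.54% to 2.95%, and 2.04% to 3.14% in the LX-2 libraries without Tg replicate 2 of shCtrl.

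Neighbouring genes also differed together. Genes were ordered along each autosome and taken in 137 windows of 100 to 144 tested genes, whose medians had an SD of 0.48 on the log2 scale. The window with the lowest median, -2.35, was on chromosome 8 between GDF6 and MYC and held 104 genes, 84.6% of them below 0. The neighbouring window on the same chromosome was at -1.40, and the first windows of chromosome 7 were at -1.23 and -0.87. The highest medians were 1.06 in the first window of chromosome 5 and 1.05 in 1 of chromosome 17. In shATF4 DMSO cells the same windows were at -2.38, -1.28, -1.23, -0.92, 1.17 and 0.70.

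ESRP1, GRHL2, RPL30, SQLE and MYC, named above as lower in LX-2, lie on chromosome 8. PNMA2, named above as higher, lies there as well. The median of chromosome 8 was -0.66 over 520 genes, against 0.56 over 413 genes of chromosome 20. By the 2-fold test 90 genes of chromosome 8 were higher in LX-2 and 204 lower. Its first window, which ends at PNMA2, had a median of 0.25, against -2.35 from GDF6 to MYC. Gene copy number was not measured in these files.

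**Figure D5:**
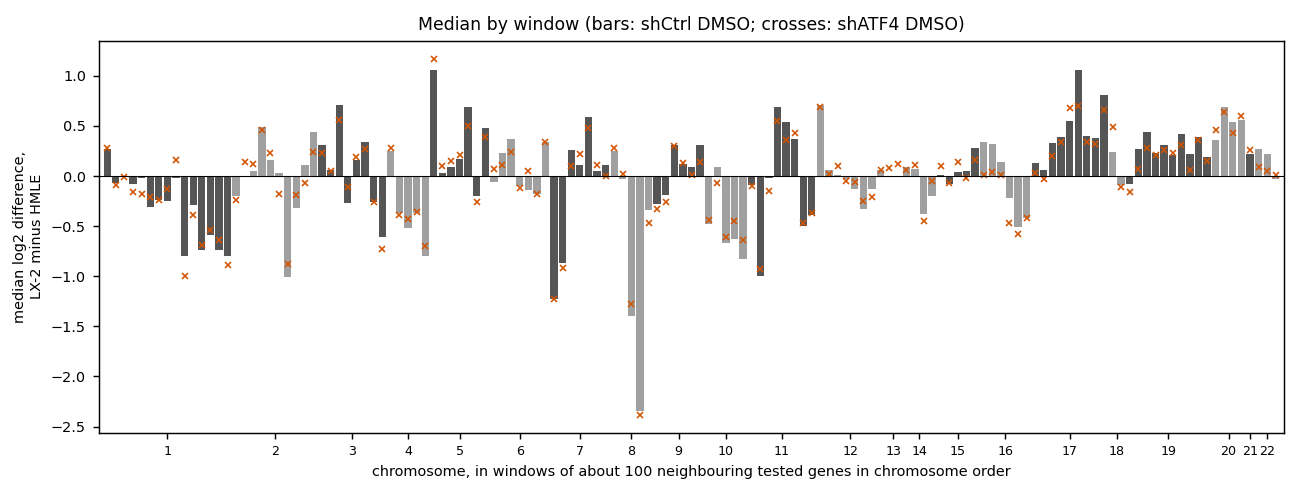
Median log2 difference (LX-2 minus HMLE) in windows of about 100 neighbouring tested genes along the autosomes, bars for shCtrl DMSO and crosses for shATF4 DMSO. The bars of chromosome 8 reach -2.35 and the crosses of shATF4 DMSO lie close to the bars.

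The same comparison was made in cells with the ATF4 hairpin, which share no library with the 4 above. There ATF4 was at 125 and 111 CPM in LX-2 and 135 and 128 CPM in HMLE. These libraries were scaled apart from those of shCtrl, and no difference between the hairpins was tested. The 2-fold test called 3299 of 14767 genes (22.3%) higher in LX-2 and 2772 (18.8%) lower, 41.1% in all. Against no difference edgeR called 41.4% higher and 42.4% lower, 83.7% together, and 91.7% of genes did not overlap between the lines. Of the 5800 genes called in shCtrl DMSO, 5026 were called in the same direction, which is 86.7% of those calls and 82.8% of the 6071 shATF4 calls, and none was called in the opposite direction. Across 14403 genes in both fits the log2 differences correlated at r = 0.969, as a description, since genes are not independent replicates and the cells share their line.

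Single genes are given here as values in the shATF4 cells. COL1A1 was at 2412 and 2364 CPM in shATF4 LX-2 and 10.5 and 8.84 CPM in shATF4 HMLE. SLC7A5 was at 51.1 and 44.4 CPM in LX-2 and 3063 and 2950.2 CPM in HMLE. TWIST1 was at 16.8 and 12.1 CPM in LX-2 and 15.5 and 10.7 CPM in HMLE, again with overlap. For COL1A1 and SLC7A5 the same line was higher with either hairpin.

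Part of the genes lay on the other side in stressed cells, given here as values with no test. In shCtrl AA_Dep cells 89.1% of the 5800 genes kept their side with no overlap and 4.02% lay on the opposite side. In shCtrl Tg cells 76.6% kept their side with all libraries and 2.1% lay on the opposite side, while 1235 genes overlapped between the lines. Without LX-2 replicate 2, in which 15840 genes had counts, 95.6% kept their side and 2.81% lay on the opposite side. Every other LX-2 library had counts for 22912 genes or more. COL1A2 was at 0.539 and 0.675 CPM in LX-2 in AA_Dep and 0.917 and 1.34 CPM in HMLE, against 123 and 129.7 CPM in unstressed LX-2. CXCL12 was at 152 and 168 CPM in LX-2 in AA_Dep with no count in HMLE. KRT5 had no count in the LX-2 libraries of AA_Dep and of Tg, with 2434 and 2594 CPM in HMLE in AA_Dep and 4672 and 4776 CPM in Tg. ATF4 was at 713 and 556 CPM in LX-2 and 931 and 946 CPM in HMLE in AA_Dep.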

How the data were processed

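RNA was measured in 32 count files, of which 2 are identical and count as 1 library, and 4 were compared here; the 9 chromatin samples were not analysed here. The labels name Qiagen RNeasy for extraction and a SMARTer kit for the mRNA libraries. The deposited values are raw counts per gene under Ensembl identifiers. Every LX-2 count file held 452 lines without an identifier and every HMLE count file 110. The cause of this was not tested, and it cannot be told apart from line. The submitters' processing notes list cutadapt, Bowtie2, STAR, HOMER, featureCounts and DESeq with the builds hg19 and hg38, without roles. Which aligner, build and strand setting made these counts is not given in the sources used here, so overlapping and antisense genes cannot be told apart.

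Counts of the 4 libraries were filtered (filterByExpr), scaled by TMM and fitted in edgeR 4.0.16 (R 4.3.3) by the quasi-likelihood method. A second test (glmTreat) was against a 2-fold difference, and both were adjusted over 16314 genes at a threshold of 0.05. After that, 539 genes on X or Y and 1074 without a chromosome in the RefSeq gene table (GRCh38.p14) were left out, which leaves 14701. The code was tested on simulated data. CPM values are counts scaled to 1e+06 per library with TMM factors, in the DMSO fit or, for the stressed libraries, over all libraries. The shATF4 libraries were fitted on their own. The alternatives were DESeq2 1.42.0, 2 other scalings, 2 other filters, all libraries in 1 fit, a replicate block and leaving out each library. Promoters and microRNAs were taken from RefSeq by symbol.

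The comparison and the 42 gene lists were chosen with earlier results of these data known. Named genes were ATF4, TWIST1, TWIST2, the 15 genes with the largest difference in each direction at 20 CPM or more, up to 6 called members and 3 others per list, and the 10 autosomal genes with the largest share of counts per line. ACTA2, ALB, ALDH1A2, APOB, CGNL1, COL16A1, COLEC11, CYGB, DCN, DES, DHRS3, FAP, FOXC1, HAND2, HGF, HOXA5, HOXA6, HOXA7, HOXC10, HOXC13, HOXC6, HOXD8, KRT34, KRT6C, MIR200CHG, MIR205, MIR205HG, MIR429, MT-CO1, PSAT1, PSPH, RARB, RDH10, SERPINE2, SLC3A2, SNAI2, STRA6, TCF21, TGFB1, TGFB2, TGFBR2, THBS1 and UCA1 were named after their values were seen. Some genes that the rule names are counted in the lists but not reported here by name.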

Additional observations from a re-analysis of the deposited data

Results flagged for a closer look

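Genes named from the lists or by share of counts were taken at 5 CPM or more in at least 1 stressed library. Of these, 8 had the 2 lines on opposite sides in stressed and unstressed shCtrl cells, with no overlap between the libraries. Genes under that level, such as COL1A2 in AA_Dep, were not listed. These differences between conditions were not tested, and each value below is the log2 ratio (LX-2 over HMLE) of mean normalised CPM plus 0.5 in the stressed cells, beside the fitted log2 difference in DMSO.

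In AA_Dep, FN1 was at 919 and 1119 CPM in LX-2 and 4178 and 4843 CPM in HMLE, a value of -2.15 against 3.25 in DMSO. Fibronectin was thus higher in LX-2 among unstressed cells and higher in HMLE in AA_Dep. CCL5, a chemokine for T cells, was at -4.13 against 8.11, and IGFBP3 at -3.13 against 2.02. OAS2, an interferon-stimulated gene, was at -1.15 against 4.31. In the other direction NGFR was at 0.74 against -4.27, and HSPA8, a constitutive heat shock protein, at 0.88 against -1.14.

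In Tg the LX-2 libraries include replicate 2, which had fewer genes with counts than the other LX-2 libraries. IGFBP3 was at -4.36, with 9.17 and 3.07 CPM in LX-2 and 127 and 144 CPM in HMLE. IGFBP7 was at -1.07 against 3.01, with 18.8 and 3.72 CPM in LX-2 and 22.5 and 25.7 CPM in HMLE, so that replicate 1 alone was nearer to HMLE. HSPA8 was at 0.32 and MANF, a secreted ER protein, at 0.47 against -1.46. MANF was at 460.3 and 759 CPM in LX-2 and 446 and 434 CPM in HMLE. The part of LX-2 replicate 2 in these values was not tested beyond the values given.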

How the results depend on the processing

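The counts of genes called stayed within 1.5 times under every alternative run. Genes higher in LX-2 ranged from 4736 (31 libraries in 1 fit) to 6479 (upper quartile scaling) and genes lower from 4733 to 6499 (30 libraries, without LX-2 Tg replicate 2 of shCtrl). By the 2-fold test the ranges were 2517 (DESeq2) to 3487 (upper quartile scaling) higher and 1986 to 2905 (the same 30 libraries) lower, and in shATF4 cells 2585 to 3655 higher and 2132 to 2835 lower. Without 1 library at a time, 5440 to 5971 genes were higher, 5476 to 6310 lower, 2982 to 3156 higher by the 2-fold test and 2370 to 2777 lower. In shATF4 cells these ranges were 2744 to 3188 and 2486 to 2673. With 1 library left in a line, that library is assumed to vary like those of the other line. Replicate numbers did not pair the libraries (r = 0.0155 between same-numbered deviations, 2 pairs). With the replicate number as a block, 6026 genes were higher and 6013 lower, 3199 and 2565 by the 2-fold test and 3247 and 2761 in shATF4 cells. Upper quartile scaling moved the split of 2-fold calls to 3487 higher and 2283 lower. TWIST1, not called in any fit, was at 0.07 on the log2 scale under upper quartile scaling. Counts within the gene lists that changed by over 1.5 times were as follows, beside the endothelial and leukocyte markers. In the fit of 31 libraries 7 ribosomal protein genes were lower in LX-2, against 18, and 1 NRF2 target and 1 cell cycle gene were higher, against 2 of each. EMT factors and cell cycle genes that were lower came to 1, against 2, in that fit, with DESeq2, under upper quartile scaling and without HMLE replicate 2. DESeq2 also called 1 interferon gene lower, against 3, and no mesenchymal filament gene, against 1. IGF binding genes that were lower came to 1, against 2, with DESeq2 and with 31 libraries. Luminal markers that were higher came to 1, against 3, with a filter of at least 1 CPM. HSPA8 was not past the 2-fold test under upper quartile scaling, with DESeq2 or without HMLE replicate 1. Without LX-2 Tg replicate 2 of shCtrl (30 libraries), none of the changes seen with 31 libraries in these lists, TGFB1, TGFBR2, HOXC13 and SNAI2 occurred, and the biological coefficient of variation was 7.43% against 22.1%. The cause of the other changes was not tested. The depth allows a floor of 3 counts over a line, so that genes without counts in 1 line give lower bounds only.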
